A study of Mus musculus with 3 samples.

Results

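Genes of glycolysis and of the hypoxia response were followed in mouse embryonic fibroblasts (MEF) cultured without and with n-butylidenephthalide (BP), a compound of Angelica sinensis. The set is a list of 40 genes taken by name among the 35451 gene names on the array. The list uses no measured value, but it was chosen with earlier results of these data known. It comprises 18 enzymes of glycolysis, 4 transporters of glucose and lactate, 4 genes of the hypoxia-inducible factors (HIF) and their oxygen sensors, and 14 further genes known to be induced by hypoxia. Together they were read by 66 of 55126 probes.

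Glycolysis splits glucose into pyruvate in the cytosol, and lactate dehydrogenase turns pyruvate into lactate, which leaves the cell through monocarboxylate transporters. When oxygen is ample, prolyl hydroxylases mark the HIF alpha proteins for destruction. When it is scarce, these proteins persist, bind a short DNA motif with the core ACGTG or GCGTG, and raise the transcription of glucose transporters, most glycolytic enzymes and genes of mitochondrial and vascular adaptation, in fibroblasts as in most other cells.

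Primary MEF of the strain C57BL/6 were cultured in DMEM with serum and received no BP (control), BP at 10 µg/ml (BP10) or BP at 40 µg/ml (BP40, spelled n-Butylenephthalide in the labels). The cells came from embryos without head, legs and internal organs, so a culture is a mixture of mesenchymal cells of different sites. The labels record no treatment for the control, whereas the study's account of the array results names DMSO as the control, and neither gives the duration of exposure. Total RNA carrying the dye Cy3 was put on Agilent whole genome arrays, 1 array for each of the 3 conditions.

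A single array stands for each condition, which gives no spread between cultures and allows no test, so every ratio sets 2 arrays side by side. The share of the 59305 gene spots that stood well above background was 81.7% for control, 68.3% for BP10 and 69.1% for BP40, and 0 spots were saturated. Control was read in another scan session than the BP arrays, and in ratios to control the effects of BP and of the session cannot be told apart. BP10 and BP40 shared a session. Both ratios to control share the control array. All 16 fibroblast markers were well above background on each array, with a summed signal of 1649 on control, 1209 on BP10 and 1286 on BP40, in units of the array's 75th percentile. The 12 macrophage markers were also above background on each array, with summed signals of 37.4, 30.9 and 34.3. The summed signals of the endothelial, epithelial, erythroid and skeletal muscle lists lay between 5.38 and 18.4 on all arrays. The part of the cell mixture in the values below was not tested, and in bulk RNA fewer cells of a type and less RNA per cell cannot be told apart.

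The DNA just upstream of 6 members is shown first, because the motif core of the HIF proteins can be read in it directly. The windows are the 250 bases before the transcription start, from RefSeq on the build GRCm38.p6, written 5′ to 3′ on the strand of the gene. Capitals mark ACGTG and GCGTG and, where the motif lies on the opposite strand, their reverse complements CACGT and CACGC. The palindrome CACGTG holds ACGTG on both strands.
Bnip3 (chr7:138909507-138909756, minus strand): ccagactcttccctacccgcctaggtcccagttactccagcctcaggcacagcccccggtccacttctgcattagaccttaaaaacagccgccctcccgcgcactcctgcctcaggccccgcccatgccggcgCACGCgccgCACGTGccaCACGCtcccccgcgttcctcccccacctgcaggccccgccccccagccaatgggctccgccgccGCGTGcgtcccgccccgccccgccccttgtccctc
Slc16a3 (chr11:120948817-120949066, plus strand): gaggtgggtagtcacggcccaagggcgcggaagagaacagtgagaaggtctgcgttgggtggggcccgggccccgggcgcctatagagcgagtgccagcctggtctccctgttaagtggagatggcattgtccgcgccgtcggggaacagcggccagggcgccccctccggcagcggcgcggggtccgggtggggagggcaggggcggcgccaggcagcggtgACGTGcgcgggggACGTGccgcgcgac
Slc2a1 (chr4:119108495-119108744, plus strand): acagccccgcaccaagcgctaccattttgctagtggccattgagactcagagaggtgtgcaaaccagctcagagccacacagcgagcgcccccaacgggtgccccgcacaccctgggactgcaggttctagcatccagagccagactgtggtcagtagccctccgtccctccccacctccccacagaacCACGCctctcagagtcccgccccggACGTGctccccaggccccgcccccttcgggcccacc
Pdk1 (chr2:71872974-71873223, plus strand): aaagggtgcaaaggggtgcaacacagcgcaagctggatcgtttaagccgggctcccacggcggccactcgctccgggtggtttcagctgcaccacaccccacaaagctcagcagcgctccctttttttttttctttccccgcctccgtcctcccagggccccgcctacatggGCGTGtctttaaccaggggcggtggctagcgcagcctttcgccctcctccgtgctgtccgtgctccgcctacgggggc
Ldha (chr7:46845554-46845803, plus strand): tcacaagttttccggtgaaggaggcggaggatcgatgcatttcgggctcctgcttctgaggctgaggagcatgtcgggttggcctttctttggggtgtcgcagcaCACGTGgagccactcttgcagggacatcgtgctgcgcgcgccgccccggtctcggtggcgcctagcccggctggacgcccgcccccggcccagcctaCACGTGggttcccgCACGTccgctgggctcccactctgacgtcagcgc
Vegfa (chr17:46032378-46032627, minus strand): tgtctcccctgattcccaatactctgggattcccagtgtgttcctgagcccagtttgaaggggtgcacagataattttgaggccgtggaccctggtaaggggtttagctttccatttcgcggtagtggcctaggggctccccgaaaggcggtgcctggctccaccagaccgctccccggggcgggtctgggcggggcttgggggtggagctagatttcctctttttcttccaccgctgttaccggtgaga

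The Bnip3 window holds the palindrome CACGTG, first base 108 bases upstream of the start, between 2 matches to GCGTG on the opposite strand, and a further GCGTG closer to the start. The Slc16a3 window holds 2 matches to ACGTG on the gene strand, 27 and 14 bases upstream. The Slc2a1 window holds 1 match to each core, and the Pdk1 window 1 match to GCGTG alone. The Ldha window shown is the richest of all member windows in ACGTG, with 5 matches counted over both strands. This Vegfa window holds 0 matches to either core. The window of a second annotated start, which lies downstream of the first, holds 1 of each. These are letters in a short window, and binding of HIF was not measured.

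Windows were found for 36 of the 40 members, 52 windows in all. ACGTG was present in 48.1% of the member windows, compared with 16.6% of all 32851 promoter windows and 22.4% of those of genes with brightness above 0. Brightness is the mean of the log2 signals over the 3 arrays, relative to the 75th percentile. GCGTG was present in 55.8% of the member windows, 28.2% of all windows and 46.2% of those of the brighter genes. The 46 windows of a list of other hypoxia targets, described below, held ACGTG in 32.6% and GCGTG in 60.9%. Some genes have several windows, which can overlap, as those of Aldoa and Eno1 do. Base composition was not matched between these sets.

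**Figure D1:**
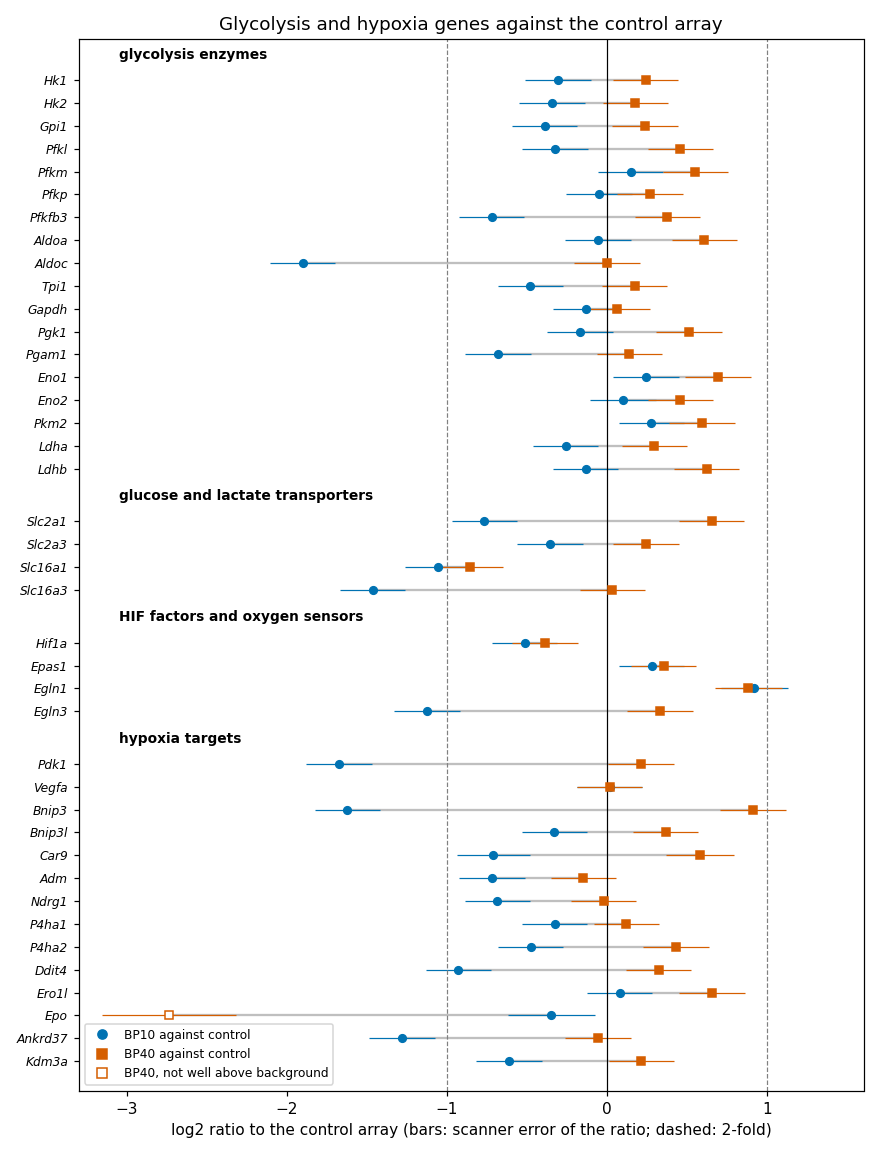
Log2 ratio of each of the 40 genes at BP10 (circles) and BP40 (squares) to the control array, with the scanner software's error of the ratio, in groups by role. The open square marks Epo, which was not well above background at BP40. For 25 of the 40 genes the circle lies left of 0 and the square right of it.

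The main pattern was a dip at BP10 and a return at BP40, though the dip was not particular to the members. The 16 fibroblast markers had a median log2 ratio to control of -0.53 at BP10, with all 16 below 0, and of -0.48 at BP40. Against genes of similar brightness, 8 of the 18 enzymes lay above 0 in BP10 against control and 10 below. BP10 was the lowest of the 3 arrays for 31 of the 40 members, compared with 43.6% of all genes and 49.7% of those with brightness above 0. BP40 was the highest for 32 of 40, compared with 30.2% of all genes and 47.2% of the brighter ones. The log2 ratio lay below 0 at BP10 and above 0 at BP40 for 25 of 40 members (62.5%). Among all genes this share was 15.8%, and among the genes with brightness above 0, where 32 of the members lie, it was 28.4%.

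Calls needed a 2-fold ratio and a probe well above background on either array. In BP10 against control, 0 members were called higher and 7 lower, while 12.9% of all genes were called, 2.6% higher and 10.3% lower. Among the genes with brightness above 0 it was 2.2%, with 0.603% higher and 1.6% lower, and 4 of the 32 members in that range were called. In BP40 against control, 0 members were called higher and 1 lower, while 11.5% of all genes were called, 2.5% higher and 9% lower. Among the brighter genes it was 1.75%, with 0.859% higher and 0.895% lower, and 0 of the 32 members. In BP40 against BP10, 10 members were called higher and 1 lower, while 3.65% of all genes were called, 1.88% higher and 1.77% lower. Among the brighter genes it was 1.7%, with 1.18% higher and 0.521% lower, and 7 of the 32 members were called, all higher. The median log2 ratio of the 40 members was -0.35 in BP10 against control, 0.28 in BP40 against control and 0.64 in BP40 against BP10. The medians over all genes were -0.23, -0.11 and 0.06, and over the brighter genes -0.10, 0.06 and 0.15.

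These ratios are relative to the 75th percentile of each array, and a different reference moved them. The array carries probes for E1A, a control RNA spiked into a labeling, and 8 of these were well above background on all arrays. The amounts of E1A added to each labeling are not given in the sources used here, so their part in the following ratios was not tested. Their median log2 ratio was -0.07 in BP10 against control, 0.78 in BP40 against control and 0.85 in BP40 against BP10. Scaled to these probes, the members' median became -0.50 in BP40 against control and -0.21 in BP40 against BP10, with all genes at -0.89 and -0.79, and 2 of the 40 members lay above control at BP40. A common factor leaves the distance of the members from other genes as it was, but the sign of their median at BP40 depended on it. On that scaling Bnip3, Aldoc and Pdk1 were still called higher in BP40 against BP10, and the other 7 were not. Of all genes 0.313% were called higher there and 20.9% lower. The direction of calls over all genes also depended on the processing. The share of calls that were higher was 20.2% in BP10 against control and 21.7% in BP40 against control. It was 54.1% and 55.1% after quantile normalization and 33.0% and 46.3% after a normexp background correction. With the spike-in scaling it was 25.9% and 1.32%.

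**Figure D2:**
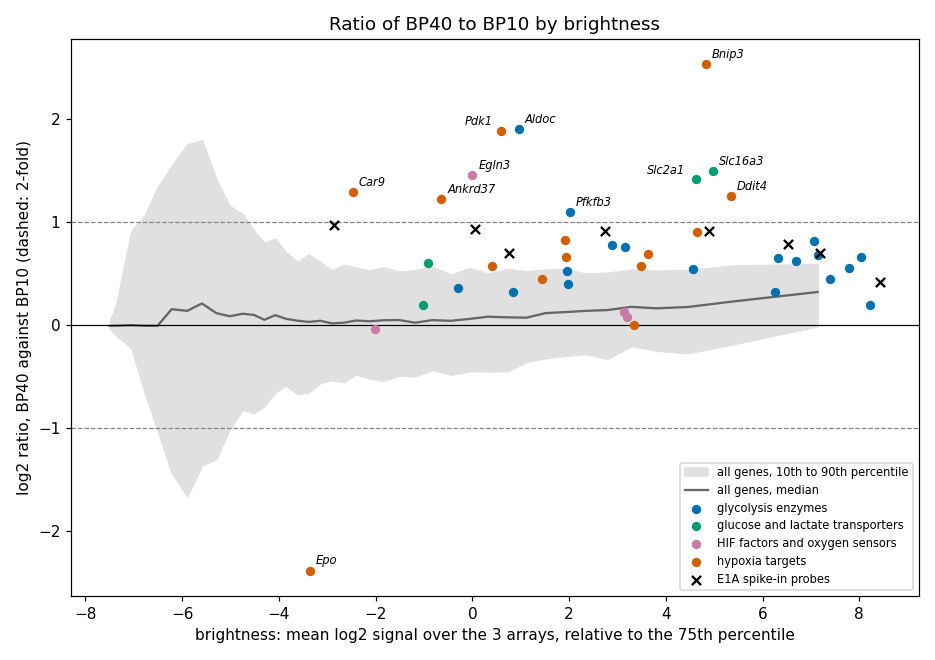
Log2 ratio of BP40 to BP10 (vertical axis) by brightness (horizontal axis) for the 40 members, coloured by role, and for the 8 E1A spike-in probes (crosses). The line and band give the median and the 10th to 90th percentile of all genes. The called members lie above the band except Epo, most glycolytic enzymes lie near its upper edge on the right, and the crosses lie between 0.42 and 0.97.

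Brightness moved with the ratio as well, as the plot of BP40 to BP10 by brightness shows. The median log2 ratio of BP40 to BP10 was 0.02 for genes with brightness below 0 and 0.32 for the 982 genes with brightness above 6, 9 of which are members. The median of the 200 genes nearest in brightness was then subtracted. The members' median in BP40 against BP10 became 0.40, with 33 of 40 above 0. Of the members 9 were called higher and 1 lower, while 1.54% of all genes were higher and 2.10% lower. In BP10 against control the members' median became -0.26. A coarser correction, in 20 classes of brightness, also gave 0.40 in BP40 against BP10.

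Bnip3, which encodes a mitochondrial protein that promotes removal of mitochondria, had the largest difference of the set between the doses. Its log2 signal was 5.06 on control, 3.44 on BP10 and 5.97 on BP40. The gene was thus 3.08-fold lower at BP10 and 1.88-fold higher at BP40 than on control, and 5.79-fold higher at BP40 than at BP10. The scanner error of such a ratio was 0.20 on the log2 scale. Its 3 probes gave log2 ratios of 2.53, 2.51 and 1.96 for BP40 against BP10 and of -1.62, -1.97 and -1.46 for BP10 against control. The paralogue Bnip3l, with a related role, moved less, with a log2 ratio of 0.69 between the doses.

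Pdk1, the kinase that inactivates pyruvate dehydrogenase and so limits the use of pyruvate in the mitochondrion, had log2 signals of 1.08 on control, -0.59 on BP10 and 1.29 on BP40. It was 3.19-fold lower at BP10 than on control and 3.70-fold higher at BP40 than at BP10, and BP40 and control differed by 0.21 on the log2 scale, about the scanner error.

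Among the glycolytic enzymes the aldolase isoform Aldoc stood apart. Its log2 signal was 1.59 on control, -0.31 on BP10 and 1.59 on BP40, so that the gene was 3.74-fold lower at BP10 and level with control at BP40. Aldoa, the aldolase of most tissues, had log2 signals of 7.85, 7.79 and 8.45 and was called in 0 comparisons. Pfkfb3 makes fructose 2,6-bisphosphate, the main activator of phosphofructokinase. Its log2 signals were 2.13, 1.41 and 2.51, and BP40 was 2.14-fold above BP10, just past the threshold, a call lost under both brightness corrections. The second Pfkfb3 probe gave a log2 ratio of 1.12 beside 1.096 for the probe used.

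By the probe used, the other 16 enzymes moved by less than 2-fold in each comparison. The second Pfkp probe gave log2 ratios of -1.02 in BP10 against control and -0.28 in BP40 against control, beside -0.05 and 0.27. Hk2, the inducible hexokinase of the first step, had log2 signals of 2.01, 1.67 and 2.19 on control, BP10 and BP40. Ldha, the dehydrogenase that yields lactate, had 7.78, 7.52 and 8.07, with a log2 ratio of 0.55 between the doses that was 0.22 above that of genes of similar brightness. In BP10 against control the probe used for Ldha gave -0.26, whereas the other two gave 0.18 and 0.29. By the probe used, all 18 enzymes were higher on BP40 than on BP10, with log2 ratios from 0.19 for Gapdh to 1.90 for Aldoc and a median of 0.59. Against genes of similar brightness the median was 0.34, with 16 of 18 above 0. Pgam1 (0.82), Pfkl (0.78), Ldhb (0.76), Pgk1 (0.68), Aldoa (0.67), Tpi1 (0.65), Gpi1 (0.62), Hk1 (0.55) and Eno1 (0.45) had the next largest log2 ratios of BP40 to BP10 beside Ldha and Hk2, and the second Hk1 probe gave -0.19. Pfkm, Eno2, Pfkp and Pkm2 lay between 0.32 and 0.40. In BP10 against control the median of the enzymes was -0.21. Against genes of similar brightness it was -0.03, with 8 of 18 above 0 and 10 below. The probes of Gapdh also list other RefSeq genes, so its value may not be of this gene alone.

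The transporters had the largest median of the role groups between the doses, a log2 ratio of 1.01. Slc2a1, the widely expressed glucose carrier GLUT1, had log2 signals of 4.66 on control, 3.90 on BP10 and 5.32 on BP40. It was 1.70-fold lower at BP10 and 1.57-fold higher at BP40 than on control, neither past the threshold, and 2.67-fold higher at BP40 than at BP10. Slc16a3, the lactate exporter MCT4, had log2 signals of 5.46, 3.99 and 5.49, which is 2.76-fold lower at BP10 and equal to control within the scanner error at BP40. Its second probe gave a log2 ratio of 1.53 between the doses, beside 1.496. Slc16a1, the monocarboxylate transporter MCT1, was low at both doses. Its log2 signals were -0.39, -1.45 and -1.25, so it was 2.08-fold lower at BP10, past the threshold, and 1.81-fold lower at BP40, short of it. Its call at BP10 was lost under quantile normalization, normexp, both brightness corrections and the spike-in scaling. Slc2a3, the high-affinity glucose carrier GLUT3, had a log2 ratio of 0.60 between the doses.

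The genes of the factors themselves moved little between the doses, whereas 1 of the oxygen sensors moved with the targets. Hif1a, the HIF alpha subunit regulated chiefly at the protein level, had log2 signals of 3.44, 2.93 and 3.06 with log2 ratios to control of -0.52 at BP10 and -0.39 at BP40. Epas1, encoding HIF-2 alpha, had 2.98, 3.26 and 3.33. The log2 ratio of BP40 to BP10 was 0.13 for Hif1a and 0.07 for Epas1, both below the scanner error, and the probes of each gene differed in sign, with -0.71 for the second Hif1a probe. Egln1, the main oxygen-sensing prolyl hydroxylase PHD2, was dim, with log2 signals of -2.61, -1.70 and -1.73 by 1 probe. Egln1 was higher at both doses, with log2 ratios of 0.92 and 0.88 just short of 2-fold, both against the same dim control value. With quantile normalization or either brightness correction it passed 2-fold at both doses, whereas with normexp its log2 ratios to control were 0.45 and 0.63, and with the spike-in scaling 0.99 and 0.10. Egln3, the hypoxia-induced prolyl hydroxylase PHD3, had log2 signals of 0.27, -0.86 and 0.59 and was 2.18-fold lower at BP10 than on control and 2.74-fold higher at BP40 than at BP10. Its second probe gave a log2 ratio of -0.81 at BP10, so that the median of its probes was not past 2-fold there.

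Among the hypoxia targets, 3 more were called higher in BP40 against BP10 besides Bnip3 and Pdk1. Ankrd37, an ankyrin repeat gene, had log2 signals of -0.20, -1.48 and -0.25 and was 2.43-fold lower at BP10 than on control and 2.34-fold higher at BP40 than at BP10. Ddit4, encoding the mTORC1 inhibitor REDD1, had 5.55, 4.62 and 5.87, which is 1.90-fold below control at BP10, the nearest member outside the threshold, and 2.38-fold higher at BP40 than at BP10, a call lost under the brightness correction in classes. Car9, the cell surface carbonic anhydrase used as a hypoxia marker, was dim, with log2 signals of -2.43, -3.14 and -1.85, and was 2.45-fold higher at BP40 than at BP10. The call of Car9 was lost with normexp. P4ha2, a collagen prolyl 4-hydroxylase subunit, was the nearest below the threshold between the doses, with a log2 ratio of 0.91.

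Epo was the exception. The gene of erythropoietin was dim on every array, with log2 signals of -2.34 on control, -2.69 on BP10 and -5.07 on BP40, and it was not well above background on BP40. On this scaling it was at least 6.57-fold lower on BP40 than on control and at least 5.15-fold lower than on BP10, by 1 probe. The size depended on the processing, and with normexp the log2 ratios were -1.38 and -0.91. Both calls were lost when the probe had to be above background on both arrays, and the one against BP10 also with normexp.

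Vegfa, the vascular growth factor that is a classical target of HIF, did not share the pattern. Its log2 signals were 3.33 on control, 3.35 on BP10 and 3.35 on BP40. The second probe gave log2 ratios of 0.48 at BP10 and 0.63 at BP40 against control, and 0.15 between the doses. The remaining targets lay between these extremes in BP40 against BP10. Kdm3a, a histone demethylase, had a log2 ratio of 0.83, Ndrg1 of 0.66, Ero1l of 0.58, the vasodilator peptide gene Adm of 0.57 and P4ha1 of 0.45. Of these, Ero1l was the only one not below control at BP10.

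**Figure D3:**
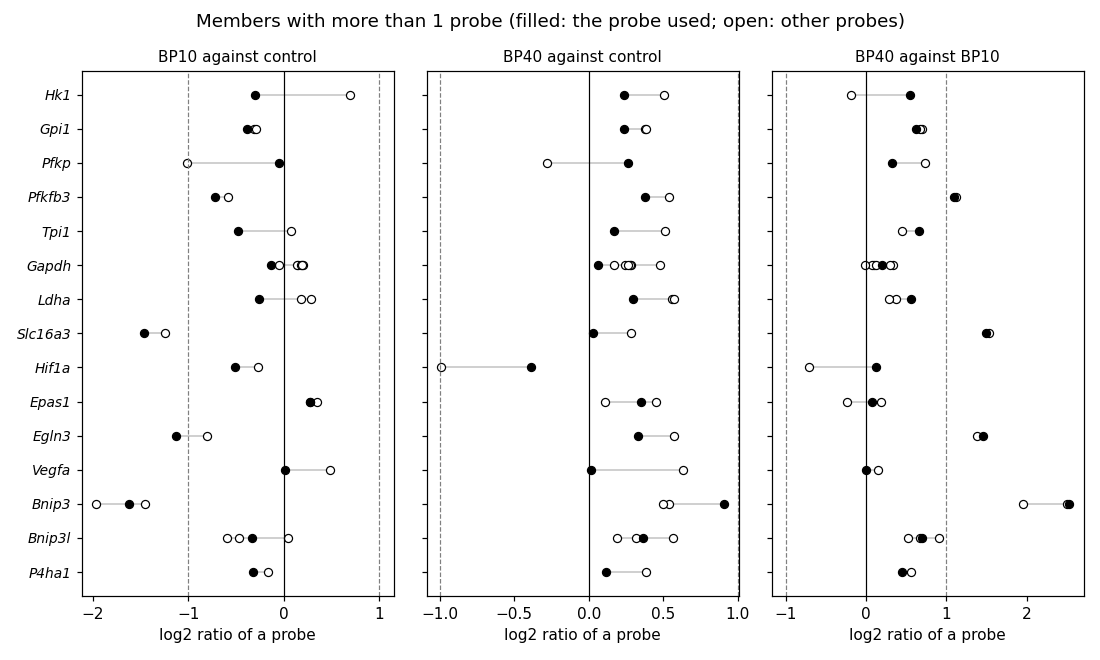
Log2 ratios of all 41 probes of the 15 members with more than 1 probe in the 3 comparisons, the probe used filled and the others open. In BP40 against BP10 the probes of Bnip3, Slc16a3, Egln3 and Pfkfb3 all lie past 2-fold, while those of Hk1, Gapdh, Hif1a and Epas1 lie on both sides of 0.

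All probes agreed in sign for 11 of these 15 members in BP40 against BP10, for 14 in BP40 against control and for 10 in BP10 against control, where Bnip3l, Gapdh, Hk1, Ldha and Tpi1 had probes on both sides of 0. Over the genes of the array with 2 probes the median SD between their log2 ratios was 0.21 in BP40 against BP10 and 0.29 in BP10 against control. The differences of Bnip3, Pdk1, Aldoc, Slc16a3, Egln3 and Slc2a1 between the doses were several times as large as this SD, and those of Vegfa, Hif1a, Epas1, Egln1 and Slc16a1 were within it.

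The 22 members with ACGTG in a promoter window had a median log2 ratio of 0.67 in BP40 against BP10, with 8 called higher. Vegfa is among the 22 only by the window of its downstream start. The 14 with a window but without ACGTG had a median of 0.60, with 2 called higher, Aldoc and Pdk1, and 1 lower, Epo. Of all genes 1.88% were called higher and 1.77% lower.

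**Figure D4:**
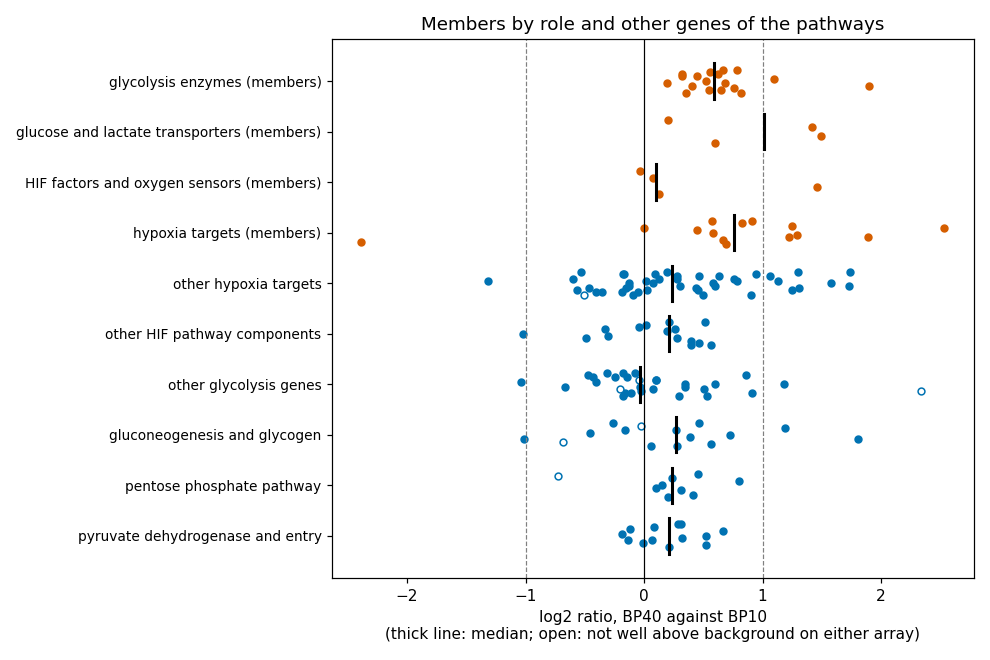
Log2 ratio of BP40 to BP10 for the members by role (orange) and for 6 lists of other genes of the same pathways (blue), each point 1 gene and the thick line the median. The medians are 0.59, 1.01, 0.10 and 0.76 for the members by role and between -0.04 and 0.27 for the other lists.

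Other genes of the pathways were read the same way, beside 1.88% of all genes called higher and 1.77% lower in BP40 against BP10. Of 44 other hypoxia targets, 8 were called higher in BP40 against BP10 and 1 lower, with a median log2 ratio of 0.23. Against genes of similar brightness that median was 0.05, with 24 of 44 above 0 and 7 called higher, beside 1.54% of all genes. The largest were Ak4, a mitochondrial adenylate kinase, at 1.74, Stc2, encoding stanniocalcin 2, at 1.73, and Fam162a at 1.58. This list had 0 called higher and 3 lower (6.82%) in BP10 against control, beside 10.3% of all genes called lower. Ak4 and Stc2 were among these 3, with log2 ratios of -1.40 and -1.79. Angptl4, a lipase inhibitor also controlled by PPAR factors, was instead lower at both doses, with log2 ratios of -1.06 and -1.53. The hypoxia targets of this list called in BP40 against control were 0 higher and 3 lower (6.82%), beside 9% of all genes called lower. Among 30 other glycolysis genes 1 was called higher between the doses, Pgm1 (1.18), and 1 lower, Hk3 (-1.04), with a median of -0.04. In the gluconeogenesis and glycogen list, Pygl, the liver glycogen phosphorylase (1.81), and Gbe1, the glycogen branching enzyme (1.19), were called higher, 2 of 15. G6pc was lower than control at both doses, with log2 ratios of -1.21 and -1.15. Calls lower than control in this list were 2 of 15 at BP10 and 1 of 15 at BP40, beside 10.3% and 9% of all genes. Among 15 other components of the HIF pathway 1 was called between the doses, the coactivator Ep300, lower with a log2 ratio of -1.02. In that list 1 of 15 was called higher in BP10 against control, Cited2 (1.07), beside 2.6% of all genes. Another 1 was called higher in BP40 against control, Cited4 (1.06), beside 2.5% of all genes. Cited4 was dim, with a log2 signal of -4.19 on control, and each of the 2 was called at 1 dose only. Among the 13 genes of pyruvate dehydrogenase and pyruvate entry and the 9 of the pentose phosphate pathway, 0 were called between the doses.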

How the data were processed

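RNA of 3 MEF cultures was measured on 1-colour Agilent arrays. The authors deposited the scanner output of Feature Extraction 10.5.1.1, with a processed intensity per spot that was corrected for background and detrended within each array only. The series table deposited beside it equals these intensities within a relative tolerance of 0.0001. No value column was left unmapped.

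Processed intensities were put on the log2 scale and centred, array by array, on the 75th percentile of gene spots without an outlier flag. Spots of 1 probe were averaged. Probes were named by RefSeq accession (26425 of 55681 gene probes), with the scanner file's name for the rest. Each gene was read by the probe that most arrays had above background, ties going to the brighter. Where 1 array was dim, the ratio is a lower bound, with the dim level set to the lowest signal there well above background, or to the probe's own if that was higher. Errors are the scanner software's. The number of arrays limits the precision.

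Samples were grouped by the labels, and the 3 pairwise comparisons were made. The members and gene lists were chosen with earlier results of these data known. Named in detail are the members called in any comparison, Hk2, Ldha, Hif1a, Epas1, Vegfa and other defining genes, the members nearest the threshold, and genes of the other lists called at both doses or between them, up to 3 or 5 per list. Of the 12 alternatives, 2 were added after seeing the data: scaling on spike-ins and subtraction of the median of the 200 genes nearest in brightness. Python 3.11.15, numpy 2.4.6, pandas 2.3.3, matplotlib 3.10.9 and R 4.3.3 with limma 3.58.1 were used. Calling was tested on simulated data with equal noise for every gene and changes well past 2-fold, placed outside the dimmest genes. That test does not cover changes near 2-fold, dim genes or differences between scan sessions.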

Additional observations from a re-analysis of the deposited data

Results flagged for a closer look

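For 8 members the ratio to control went in opposite directions at the 2 doses, lower at BP10 and higher at BP40, with the doses at least 2-fold apart. The log2 ratio of BP40 to BP10 was 2.53 for Bnip3, 1.89 for Pdk1, 1.496 for Slc16a3, 1.46 for Egln3, 1.42 for Slc2a1, 1.29 for Car9, 1.25 for Ddit4 and 1.096 for Pfkfb3. With 1 array per dose this difference was not tested. Above control at BP40, the log2 ratio of Slc16a3 was 0.03, well inside the scanner error of 0.20, and that of Pdk1 was 0.21. With the spike-in scaling Bnip3 alone of these stayed above control at BP40, at 0.13, while the other 7 lay between -0.75 for Slc16a3 and -0.13 for Slc2a1.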

How the results depend on the processing

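With a threshold of 1.5-fold the members called were 16 in BP10 against control, 10 in BP40 against control and 23 in BP40 against BP10. Of all genes 6.75% were then called higher and 21.8% lower in BP10 against control. The shares were 6.89% and 19.6% in BP40 against control, and 7.81% and 5.53% in BP40 against BP10. With 3-fold 3 members were called in BP10 against control and 4 in BP40 against BP10. Of all genes 0.764% were then higher and 1.86% lower in the first, and 0.505% and 0.626% in the second. In BP40 against control the count was 0 with the probe above background on both arrays, and 2 with quantile normalization, with the median at each brightness subtracted and with that of the nearest genes subtracted. Of all genes 2.01% were higher and 6.84% lower in the first setting, and 5.11% and 4.17% with quantile normalization. The shares were 6.52% and 3.21% with the median at each brightness subtracted, and 6.17% and 3.21% with that of the nearest genes. The members' median in BP40 against BP10 became 0.40 with either brightness correction. Scaling on the spike-ins, added after seeing the data, called 3 in BP40 against control and 4 in BP40 against BP10, and turned the medians to -0.50 and -0.21. Of all genes it called 0.463% higher and 34.6% lower in BP40 against control, and 0.313% and 20.9% in BP40 against BP10. The share of calls that were higher over all genes became 74.2% in BP10 against control and 67.0% in BP40 against control with the brightness correction in classes, and 42.5% in BP40 against BP10, compared with 51.4%. The spike-in scaling made it 1.32% in BP40 against control and 1.48% in BP40 against BP10. The cause was not tested. Of the other values for the whole set, 48 moved by less than 1.5 times for a count or less than the SD between probes for a median. No paired analysis was possible because there is 1 array for each condition, and no replicate could be left out. Without replicates, the arrays cannot show how much cultures differ.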
